A study of Mus musculus with 36 samples.

Results

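The comparison described here is between cells that had been exposed to interleukin-1β (IL-1β) for 8 h and cells kept in medium only (0 h), both transfected with control, non-targeting siRNA (NT). Its members are 6 of the 36 RNA-seq libraries of the series, chosen by their labels as NT at 8 h (3 libraries) and NT at 0 h (3 libraries). The cells were of a wild-type mouse chondrocyte line, described in the study as fibroblast-like. By the methods the line is conditionally immortalised by culture with interferon-γ, which was washed out before experiments. The cells received either NT siRNA or siRNA against Ift88 (IFT88siRNA). They were then kept in medium only or given IL-1β at 10 ng/ml and harvested 1, 2, 4, 8 or 24 h later. The labels give the siRNA at 50 nM and the methods give it at 10 nM. The NT libraries at 4 h and at 24 h and the IFT88siRNA libraries at 0 h and 8 h (3 libraries each) are used below only to place the 8 h response. The NT libraries at 1 h and 2 h are used for levels over time. All 36 libraries enter the scaling of levels and 1 alternative fit. The line is a single culture model, and the labels do not say whether the 3 libraries of a condition came from separate cultures, so that p-values measure the spread between these libraries, which may be technical.

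IL-1β binds the IL-1 receptor together with its accessory protein, and the adaptor MyD88 and the IRAK kinases then pass the signal to IκB kinase and the MAP kinases. Active IκB kinase releases NF-κB into the nucleus, where it drives chemokines, cytokines and its own inhibitors, so that early inhibitors such as IκBα close the loop. In chondrocytes IL-1β is best known for inducing nitric oxide and prostaglandin synthesis and matrix-degrading proteases, and hours after exposure a secondary set of acute-phase and interferon-stimulated genes follows in many connective tissue cells.

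The libraries held 20223532 to 21906468 reads on genes at 0 h and 20329867 to 25712451 at 8 h. Levels are given as CPM (counts scaled to a common library size, after TMM scaling over all 36 libraries). The reads carry no molecular identifiers, and intervals on counts therefore cover counting error only. No 2 libraries of a condition were alike within sampling noise, since pairs of NT replicates at 0 h and 8 h gave a chi-square of 2.21 to 3.74 per degree of freedom, where counting noise alone gives 1. Mitochondrial genes took 1.10 to 1.22% of counts at 0 h and 0.895 to 0.969% at 8 h. Of the chondrocyte markers, Col2a1 (type II collagen), Hapln1 (link protein), Sox9 (the chondrogenic transcription factor) and Comp were well counted. Matn1 had 39 counts over the 3 libraries at 0 h and 14 at 8 h. Acan (aggrecan), with 27 counts at 0 h and 17 at 8 h, and Cnmd, with 7 and 17, were too low to test. The fibroblast collagens Col1a1, Col1a2 and Col3a1 were expressed at 124, 771 and 140 TPM (a level corrected for transcript length) at 0 h, against 8.35 TPM for Col2a1. The other fibroblast markers were lower, with Pdgfrb at 81.5, Thy1 at 12.4, Dcn at 11.7, Pdgfra at 7.89 and Lum at 0.416 TPM. Among chondrocyte markers Sox9 was at 11.3, Comp at 9.78 and Hapln1 at 8.13 TPM. Of 12 macrophage and leukocyte markers only Cd68 and Lyz2 passed the filter on low counts, with no call for either (Cd68, at −0.53 on the log2 scale, was called lowered at −0.64 without NT 8 h replicate 2), and the other 10 had at most 48 counts over the 6 libraries, Tyrobp and Cd3e none. With TPM values in place of counts 1 of the 12 was called lowered.

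After 8 h of IL-1β, 1749 of 15230 tested genes were raised and 1275 were lowered. Calls required an adjusted p-value below 0.05 together with a more than 1.5-fold change, by edgeR's quasi-likelihood test, two-sided, with Benjamini-Hochberg adjustment. The share of all tested genes that was raised is thus 11.5% and the share that was lowered 8.37%, and these are the background against which the counts in gene groups below are read. Over all tested genes the median log2 fold change was −0.016. Raised genes reached larger changes than lowered genes did: 189 of the raised and 10 of the lowered genes changed by more than 3 on the log2 scale, and 52 of the raised and 1 of the lowered by more than 5. At 0 h both sets were of lower abundance than the tested genes as a whole, with median levels of 5.85 CPM (raised) and 5.87 CPM (lowered) against 21.8 CPM. Transcript length did not separate them, as the longest annotated transcript had a median of 3055 bases for raised, 3192.5 for lowered and 3103 for all tested genes. Among 787 processed pseudogenes 45 were raised and 33 lowered, whereas of 372 long intergenic non-coding RNAs 50 were raised and 47 lowered.

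Largest changes were ranked among protein-coding genes called, with a mean of at least 50 counts and no overlap between groups. The same rule ranked the largest changes named below for other times. The 12 largest rises included 3 neutrophil-attracting CXC chemokines, the cytokine Il6 and the enzymes Nos2 and Acod1. Nos2, the inducible nitric oxide synthase, had 1 read in all 3 libraries at 0 h together, and 104, 96.6 and 107 CPM at 8 h. Its 7385 reads at 8 h give a depth-adjusted ratio of 7309, with an exact 95% counting interval of 1311 to 288736. Saa3, a serum amyloid A made outside the liver, rose from 0.209, 0.0819 and 0.0441 CPM to 432, 382 and 452 CPM, a log2 fold change of 11.81 ± 0.57 (SE, edgeR's quasi-likelihood test, adjusted p = 4.0e-22). For Cxcl5, a chemokine that draws neutrophils, the 0 h libraries gave 0.377, 0.368 and 0.353 CPM and the 8 h libraries 758, 711 and 729 CPM (log2 fold change 10.95 ± 0.28, SE, edgeR, adjusted p = 3.3e-25). None of these groups overlapped, which the choice of these genes required, and the 8 h replicates of each gene lay close together beside the distance from 0 h.

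Lcn2 (lipocalin 2, which binds bacterial siderophores) stood at 0.503, 0.368 and 0.530 CPM at 0 h and 325, 311 and 338 CPM at 8 h, a rise of 9.44 ± 0.25 on the log2 scale (SE, edgeR, adjusted p = 1.6e-23). Il6, a cytokine that drives the acute-phase response, went from 0.251, 0.246 and 0.177 CPM to 53.7, 57.9 and 55.8 CPM (log2 fold change 7.93 ± 0.36, SE, edgeR, adjusted p = 2.4e-20). Acod1, the mitochondrial enzyme that makes itaconate and is best known from activated macrophages, rose from 0.0838, 0.0819 and 0 to 17.2, 15.0 and 16.8 CPM, a log2 fold change of 8.06, on 4 reads at 0 h. In the same libraries the leukocyte markers given above had few or no reads apart from Cd68 and Lyz2. Among those with few reads, Csf1r had 3 at 0 h and 23 at 8 h, and Itgam 6 and 34. Which cells the Acod1 reads came from was not tested. The serine protease inhibitors Serpina3f and Serpina3i rose too, Serpina3f by 8.28 on the log2 scale and Serpina3i from 1 read to 355 reads. Saa2 went from 1 read to 634 reads (ratio 627, 95% counting interval 112 to 24823) and Hp (haptoglobin) rose by 7.45 on the log2 scale. Saa1 with Saa2 and the Serpina3 genes are clusters of near-identical copies between which reads can be misassigned, so their separate values are uncertain.

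**Figure D1:**
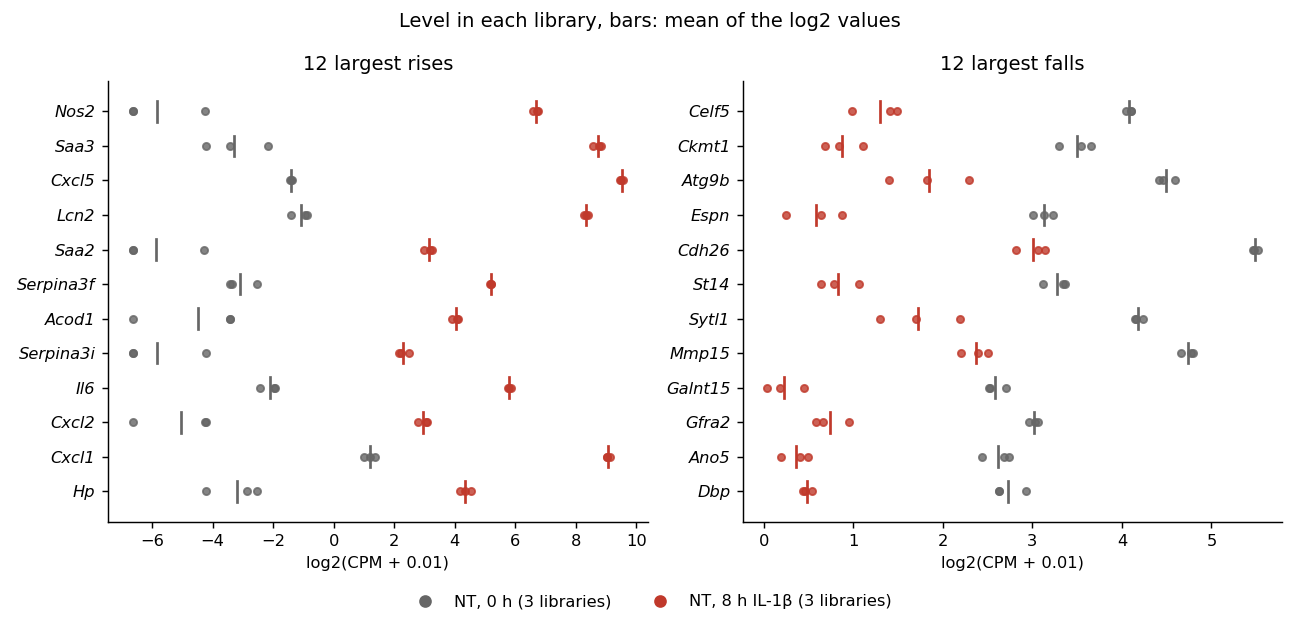
Levels of the 12 largest rises and the 12 largest falls at 8 h against 0 h in NT cells, as log2(CPM + 0.01) on the horizontal axis, with 1 point per library (3 at 0 h, 3 at 8 h) and a bar at the mean of each group. Only protein-coding genes called with a mean of at least 50 counts were ranked. In none of the 24 genes do the groups overlap, which the choice of these genes required, and the rises span a far wider distance (log2 fold changes 7.45 to 12.38) than the falls (−2.25 to −2.75).

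By the rule given above, the largest falls were smaller than the largest rises. The 10 genes lowered by more than 3 on the log2 scale did not meet that rule. Celf5, an RNA-binding protein of the CELF family, fell from 17.1, 16.5 and 17.1 CPM at 0 h to 1.97, 2.80 and 2.65 CPM at 8 h, a log2 fold change of −2.75 ± 0.12 (SE, edgeR, adjusted p = 4.1e-14). Cdh26, a cadherin, gave 44.0, 45.8 and 44.6 CPM at 0 h and 7.04, 8.35 and 8.83 CPM at 8 h, a log2 fold change of −2.45 ± 0.077 (SE, edgeR, adjusted p = 4.4e-16). Mmp15, a membrane-bound matrix metalloproteinase, fell from 27.8, 25.3 and 27.2 to 4.60, 5.64 and 5.23 CPM (log2 fold change −2.36 ± 0.091, SE, edgeR, adjusted p = 7.7e-15). All 3 genes were lower in every 8 h library than in any 0 h library, which the choice of these genes required. The others were Ckmt1 (a mitochondrial creatine kinase, −2.61), Atg9b (an autophagy protein, −2.59), Espn (an actin-bundling protein, −2.49), St14 (the serine protease matriptase, −2.41), Sytl1 (−2.4), Galnt15 (−2.35), Gfra2 (a co-receptor for neurturin, −2.28), Ano5 (−2.26) and Dbp (a clock output factor, −2.25), all as log2 fold changes. At 0 h these 12 genes had mean levels between 5.97 and 44.8 CPM.

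Chemokines were raised as a family. Of the 7 neutrophil-attracting CXC chemokines listed, 6 were tested and all 6 rose, with a median log2 fold change of 7.29. Cxcl1, which acts on the same receptor as Cxcl5, rose from 2.26, 2.58 and 1.99 to 559.7, 518 and 527 CPM (log2 fold change 7.88 ± 0.11, SE, edgeR, adjusted p = 7.0e-24). Cxcl2 had 2 reads at 0 h and 563 at 8 h, a ratio of 279 (95% counting interval 76.8 to 2306). Cxcl3 and Ppbp rose by 6.71 and 4.27, and Cxcl15 by only 0.91 (log2). Pf4 was too low to test, with 1 read at 0 h and 24 at 8 h.

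The 3 ligands of CXCR3, which attract T cells and natural killer cells and are classically induced by interferon, rose as well, with a median of 6.73. Cxcl10 gave 45.4, 44.5 and 38.9 CPM at 0 h and 834, 741 and 788 CPM at 8 h, a log2 fold change of 4.21 ± 0.054 (SE, edgeR, adjusted p = 4.5e-21). Cxcl9 and Cxcl11 started lower, at means of 0.126 and 0.381 CPM, and rose by 6.73 and 7.44. The annotation classes Cxcl11 as a polymorphic pseudogene.

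Of 11 tested CC chemokines and fractalkine, 8 rose and none fell, with a median of 3.09. Ccl2, the main chemokine for monocytes, went from 6.32, 8.23 and 6.40 CPM to 453, 399 and 425 CPM (log2 fold change 5.93 ± 0.085, SE, edgeR, adjusted p = 1.2e-21), and Ccl7, its neighbour in function, rose by 6.31. Ccl5, which attracts T cells, was already at 44.2, 40.1 and 40.8 CPM at 0 h and reached 357, 319.9 and 391 CPM, a log2 fold change of 3.10. Ccl20 rose by 6.30, Ccl9 by 3.09, Ccl17 by 2.56 and Cx3cl1 (fractalkine) by 0.73. Ccl11 (eotaxin) had no read at 0 h and 44 at 8 h, which is at least 14.5-fold higher against a limit of 3 reads over the group, and the list's median is the same with Ccl11 at that bound. Ccl25, Ccl27a and Ccl28 gave values of −0.05, −0.50 and 0.35 and were not called. The other 7 genes, Ccl3, Ccl4 and Ccl22 among them, were too low to test.

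Among 17 tested interleukins, IL-6 family members and colony-stimulating factors, 11 rose and none fell, and the median was 1.01. Besides Il6, Csf3 (G-CSF, the growth factor of neutrophils) rose from 0.168, 0.0409 and 0.221 to 9.29, 8.53 and 10.7 CPM, a log2 fold change of 6.04 ± 0.49 (SE, edgeR, adjusted p = 7.8e-14). Il1rn, the natural antagonist of the IL-1 receptor, was at 51.8, 53.6 and 52.6 CPM at 0 h and 341, 316 and 324 CPM at 8 h and rose by 2.64. Lif, an IL-6 family cytokine, rose by 2.17, Tslp by 2.63, Il33 by 1.57, Il11 by 1.29, Il15 by 0.96 and Csf1 by 0.71 (log2). Tnf remained scarce, with 1 read at 0 h and 47 at 8 h (ratio 46.5, 95% counting interval 7.95 to 1876). Il1b itself was too low to test, Il1a had 6 reads at 0 h and 38 at 8 h, and Csf2 had none at 0 h and 6 at 8 h.

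In the receptor pathway of IL-1, 7 of 16 tested genes rose and none fell (median 0.45). Il1rl1, which encodes the IL-33 receptor ST2, rose from 49.0, 48.2 and 42.3 to 872, 772 and 836 CPM, a log2 fold change of 4.16 ± 0.054 (SE, edgeR, adjusted p = 4.8e-21). Map3k8 (the kinase TPL2, upstream of ERK) rose by 2.69 and Irak3, the inhibitory member of the IRAK family, by 2.60. The accessory receptor chain Il1rap rose by 1.16, Myd88 by 1.14, Irak4 by 0.74 and the signalling receptor Il1r1 by 0.71. Traf6, Map3k7 (TAK1) and its partners Tab1, Tab2 and Tab3 were all between −0.25 and 0.10 and were not called.

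Within the NF-κB system 15 of 27 tested genes rose and none fell (median 0.89), and the members that rose were mostly its inhibitors and the inducible subunits. Nfkbia, which encodes IκBα, was at 40.4, 42.8 and 43.5 CPM at 0 h and 154, 152 and 155 CPM at 8 h (log2 fold change 1.87 ± 0.043, SE, edgeR, adjusted p = 1.1e-17). Tnfaip3, the ubiquitin-editing inhibitor A20, rose by 1.84, Nfkbie by 1.84, Tnip3 by 2.07 and Tnip1 by 1.17. The atypical nuclear IκB proteins Bcl3 and Nfkbiz rose by 4.28 and 2.83, Bcl3 from 2.60, 2.09 and 1.68 to 41.0, 41.1 and 41.7 CPM. Of the subunits, Relb rose by 1.47, Nfkb1 by 1.37, Nfkb2 by 1.03 and Rel by 0.62, while Rela was at 0.27 and was not called. The kinase subunits Ikbkb, Chuk and Ikbkg were at 0.39, 0.33 and −0.08, also without a call, and the adaptor Traf1 and the ubiquitin ligase Birc3 rose by 4.0 and 1.86.

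The promoters of Nfkbia and Cxcl1 are shown because these genes stand for the feedback and the chemokine arm of the response. They were taken from RefSeq on GRCm38.p6, 5′ to 3′, for Nfkbia at chr12:55492598-55492897 on the minus strand and for Cxcl1 at chr5:90890995-90891294 on the plus strand. Capitals mark matches to the NF-κB consensus on either strand, 29 bases before the start site in Nfkbia and, as a pair of overlapping matches, 71 and 70 bases before it in Cxcl1.
Nfkbia: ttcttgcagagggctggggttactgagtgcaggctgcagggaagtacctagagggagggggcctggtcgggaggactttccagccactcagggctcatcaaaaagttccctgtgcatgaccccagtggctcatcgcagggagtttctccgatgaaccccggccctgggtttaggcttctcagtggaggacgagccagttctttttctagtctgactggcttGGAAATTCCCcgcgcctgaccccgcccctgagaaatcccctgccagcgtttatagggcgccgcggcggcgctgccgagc
Cxcl1: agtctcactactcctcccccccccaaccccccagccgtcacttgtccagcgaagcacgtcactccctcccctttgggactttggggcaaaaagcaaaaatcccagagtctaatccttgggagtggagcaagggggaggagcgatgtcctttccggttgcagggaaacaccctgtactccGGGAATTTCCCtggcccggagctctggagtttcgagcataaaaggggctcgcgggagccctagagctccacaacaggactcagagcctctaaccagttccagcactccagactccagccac
Of the 24 genes of the NF-κB system with a listed promoter, 11 held such a match, against 5.14% of all 27025 promoters of the same length. Other lists held it as well, with 8 of 19 MHC class I and immunoproteasome genes and 5 of 15 cartilage matrix genes. It was in 0 of 16 promoters of matrix metalloproteinases and their inhibitors and 0 of 30 of ribosome biogenesis genes. Of all tested genes with a promoter the share was 6.48%. Of the raised genes with a promoter (1201) the share was 11.7%, and of the lowered genes (866) it was 5.89%. A match is a description of the letters in the window and not a measured site.

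Enzymes of nitric oxide and prostaglandin synthesis rose at several steps of each route, with 8 of 15 tested genes raised, 2 lowered and a median of 0.84. Ptgs2 (COX-2), the inducible enzyme of prostaglandin synthesis, gave 48.4, 47.2 and 48.5 CPM at 0 h and 329.5, 304 and 296 CPM at 8 h (log2 fold change 2.70 ± 0.045, SE, edgeR, adjusted p = 1.1e-19). Ptges, the inducible terminal synthase that acts after COX-2, rose by 1.8, the phospholipase Pla2g4a that supplies arachidonic acid by 1.05, and the prostaglandin-degrading enzyme Hpgd fell by 1.32. On the side of nitric oxide, Slc7a2, an arginine transporter, rose from 85.6, 92.1 and 84.0 to 642, 617 and 566 CPM (log2 fold change 2.81 ± 0.047, SE, edgeR, adjusted p = 1.6e-19). Gch1, which starts the synthesis of the cofactor tetrahydrobiopterin, rose by 1.57 and Arg2, which competes for arginine, by 2.78. The neuronal form Nos1 had 46 reads at 0 h and 17 at 8 h and was lowered, a call that was lost with DESeq2 or without the NT 0 h replicate 2, in either of which 1 gene of the list was lowered.

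Of 5 tested leukocyte adhesion molecules 4 rose (median 3.0). Vcam1, a ligand for integrins on leukocytes, rose from 11.3, 12.3 and 10.9 to 150.4, 139 and 152 CPM and Icam1 from 3.69, 3.27 and 3.57 to 29.2, 25.9 and 28.8 CPM. Their log2 fold changes were 3.68 ± 0.063 and 3.0 ± 0.10 (SE, edgeR, adjusted p = 3.6e-20 and 4.1e-16). Selp and Madcam1 rose on few reads, Selp from 2 to 77 and Madcam1 from 18 to 56, and F11r was at −0.089. With log2(TPM + 1) in place of counts 2 of the list were called raised.

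Matrix proteases changed in part. Of 16 tested matrix metalloproteinases and their inhibitors 6 rose and 1 fell (median 0.35). Mmp13, the collagenase that cuts type II collagen, went from 0.670, 0.655 and 0.353 to 25.1, 21.6 and 23.2 CPM (log2 fold change 5.36 ± 0.24, SE, edgeR, adjusted p = 1.0e-16). Mmp3 (stromelysin 1) rose from 0.0838, 0.123 and 0.309 to 5.25, 5.99 and 5.38 CPM, a log2 fold change of 5.0, and Mmp10 (stromelysin 2) by 3.10. Timp1, an inhibitor of these enzymes, rose by 2.68 to a mean of 768 CPM, and Mmp28 and Mmp19 rose by 0.96 and 0.74. Mmp2 and Mmp14 were at −0.42 and 0.12 and were not called, and Mmp15 was the gene that fell.

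Of 10 tested ADAMTS proteases, 3 rose and 1 fell (median 0.30). Adamts4, one of the aggrecanases, rose from 8.08, 7.98 and 8.47 to 17.7, 18.4 and 20.0 CPM (log2 fold change 1.21 ± 0.081, SE, edgeR, adjusted p = 1.2e-10), while Adamts5, the other main aggrecanase, was at 0.22 without a call. Adamts2 and Adamts6 rose by 0.87 and 0.81. Adamts10 fell by 0.60, just past the fold threshold, and its call was lost without NT 0 h replicate 1, NT 8 h replicate 1 or NT 8 h replicate 3, when it was between −0.57 and −0.47 and none of the list was lowered.

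Genes of cartilage matrix were lowered more often than raised, 5 against 3 of 14 tested (median −0.18). Hapln1 fell from 20.1, 22.2 and 26.0 to 9.05, 9.36 and 8.98 CPM (log2 fold change −1.31 ± 0.091, SE, edgeR, adjusted p = 2.0e-10), Col9a3 by 1.28, Col10a1 by 0.95 and Col2a1 by 0.79. Matn1 (matrilin 1) had 39 reads at 0 h and 14 at 8 h, and its call was lost with DESeq2, without NT 0 h replicate 1 (−1.29) and without NT 8 h replicate 3 (−0.87). The members that rose were Prg4 (lubricin, the lubricant of joint surfaces), from 1.26, 1.27 and 0.750 to 7.83, 7.08 and 6.69 CPM with a log2 fold change of 2.71 ± 0.19 (SE, edgeR, adjusted p = 4.6e-11), Col11a2 (1.72) and Comp (0.64). Sox9, Sox5 and Sox6, the transcription factors of the chondrocyte programme, were at 0.19, 0.09 and −0.25 and were not called.

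In fibrous matrix, 9 of 26 tested genes rose and 2 fell (median 0.33). Decorin (Dcn), a small proteoglycan that binds collagen fibrils, rose from 9.26, 10.2 and 10.4 to 153, 142 and 155 CPM (log2 fold change 3.92 ± 0.064, SE, edgeR, adjusted p = 1.3e-20), and lumican (Lum) by 3.10. The collagen cross-linking enzymes Lox and Loxl2 rose by 1.51 and 1.36 and Prelp by 1.27. Aspn (asporin) fell by 1.25 and Eln (elastin) by 0.76. Col1a1 and Col1a2 were at −0.10 and −0.01 and were not called, while Col3a1 rose by 0.96.

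Acute-phase, antimicrobial and complement genes were among the most widely raised groups, with 20 of 22 tested members raised, none lowered and a median of 3.46. Complement C3 (C3), the central component of the cascade, rose from 17.7, 15.1 and 15.2 to 294, 275 and 295 CPM, a log2 fold change of 4.18 ± 0.06 (SE, edgeR, adjusted p = 4.8e-21). Factor B (Cfb) rose by 4.12, C4b by 2.35, C2 by 1.13, C1ra by 1.0 and C1s1 by 0.96, and C1rl (0.38) was not called. The pentraxin Ptx3 rose by 2.81, ceruloplasmin (Cp) by 2.19, the metalloreductase Steap4 by 5.54 and the antimicrobial peptide gene Camp by 4.44. Chil1, a chitinase-like protein of inflamed cartilage, went from 1 read to 122 (ratio 121, 95% counting interval 21.3 to 4808). The 3 Orm genes, S100a9, Cfd and Hamp were too low to test.

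The promoters of Saa3 and C3 are printed for this group, from RefSeq on GRCm38.p6, at chr7:46715627-46715926 and chr17:57228087-57228386, both on the minus strand. Capitals mark matches to the C/EBP motif TTGCNNAA on either strand, 99 bases before the start site in Saa3 and 45 in C3, and in Saa3 also a match to the interferon-stimulated response element (ISRE) GAAANNGAAA 125 bases before it.
Saa3: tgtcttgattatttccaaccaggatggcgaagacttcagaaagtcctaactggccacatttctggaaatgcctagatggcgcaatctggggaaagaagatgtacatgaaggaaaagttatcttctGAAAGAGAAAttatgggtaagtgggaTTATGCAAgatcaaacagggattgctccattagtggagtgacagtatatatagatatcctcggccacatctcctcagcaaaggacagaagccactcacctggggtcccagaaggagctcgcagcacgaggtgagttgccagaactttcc
C3: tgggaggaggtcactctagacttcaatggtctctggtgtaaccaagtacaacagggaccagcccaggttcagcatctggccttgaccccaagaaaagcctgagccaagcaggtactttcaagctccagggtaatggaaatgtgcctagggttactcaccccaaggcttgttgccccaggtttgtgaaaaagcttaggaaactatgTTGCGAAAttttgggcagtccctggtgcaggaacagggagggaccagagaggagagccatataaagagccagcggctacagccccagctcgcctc
Of the 21 genes of the group with a listed promoter, 14 held the C/EBP motif (66.7%), against 12.2% of all promoters, 15.2% of those of raised genes and 10.0% of those of lowered genes.

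All 37 tested interferon-stimulated genes rose, with log2 fold changes from 0.70 (Irf9) to 4.98 (Mx1) and a median of 1.64. Mx1, an antiviral GTPase, was at 5.4, 5.44 and 4.10 CPM at 0 h and 154, 154 and 161 CPM at 8 h (log2 fold change 4.98 ± 0.087, SE, edgeR, adjusted p = 6.8e-21). Gbp2, a guanylate-binding protein induced by interferon-γ, rose from 41.8, 42.1 and 41.7 to 490.3, 455 and 469 CPM (log2 fold change 3.50 ± 0.042, SE, edgeR, adjusted p = 1.2e-21). Rsad2 (viperin) rose by 2.95, Zbp1, a sensor of Z-form nucleic acids, by 3.47, Gbp5 by 4.36 and Gbp3 by 2.61. The transcription factors of the interferon response rose less, Irf7 and Stat2 by 1.55 each, Irf1 by 1.12 and Irf9 by 0.70. Ifi44l was too low to test, and reads of Ifit3 and Ifit3b may be shared between these close copies.

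Ifit3 and Isg15 are shown as interferon-stimulated promoters, from RefSeq on GRCm38.p6, at chr19:34583279-34583578 on the plus strand and chr4:156200769-156201068 on the minus strand. Capitals mark matches to the ISRE motif GAAANNGAAA on either strand, 156 and 122 bases before the start site in Ifit3 and, overlapping, 78, 72 and 66 bases before it in Isg15.
Ifit3: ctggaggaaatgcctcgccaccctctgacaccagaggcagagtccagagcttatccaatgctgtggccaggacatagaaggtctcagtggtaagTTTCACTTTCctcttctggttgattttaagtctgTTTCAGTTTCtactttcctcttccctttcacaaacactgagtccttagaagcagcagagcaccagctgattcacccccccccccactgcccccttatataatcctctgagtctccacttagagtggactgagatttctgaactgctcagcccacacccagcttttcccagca
Isg15: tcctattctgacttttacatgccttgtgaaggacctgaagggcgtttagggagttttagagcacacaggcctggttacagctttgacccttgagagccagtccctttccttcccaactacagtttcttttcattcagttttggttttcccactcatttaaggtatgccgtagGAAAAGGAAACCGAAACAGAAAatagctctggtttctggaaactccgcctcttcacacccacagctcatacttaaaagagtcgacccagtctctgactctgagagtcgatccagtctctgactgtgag
Of the 30 interferon-stimulated genes with a promoter 18 held this motif (60%), against 3.99% of all promoters, 10.4% of those of raised genes and 2.54% of those of lowered genes.

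MHC class I and immunoproteasome genes rose for 11 of 22 tested members and fell for none (median 0.61). The immunoproteasome subunit Psmb10 rose from 25.6, 27.6 and 23.8 to 163, 149 and 164 CPM, a log2 fold change of 2.63 ± 0.057 (SE, edgeR, adjusted p = 2.9e-18), and Psmb8 by 0.80. The peptide-loading genes Tapbp, Erap1 and Tap2 rose by 1.18, 1.13 and 0.90, and the non-classical molecules H2-T22 and H2-T23 by 1.25 and 1.13. The classical heavy chains H2-K1 and H2-D1 and the light chain B2m were at 0.29, 0.23 and 0.04 and were not called. Reads of the H2 genes can be misassigned between close copies.

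**Figure D2:**
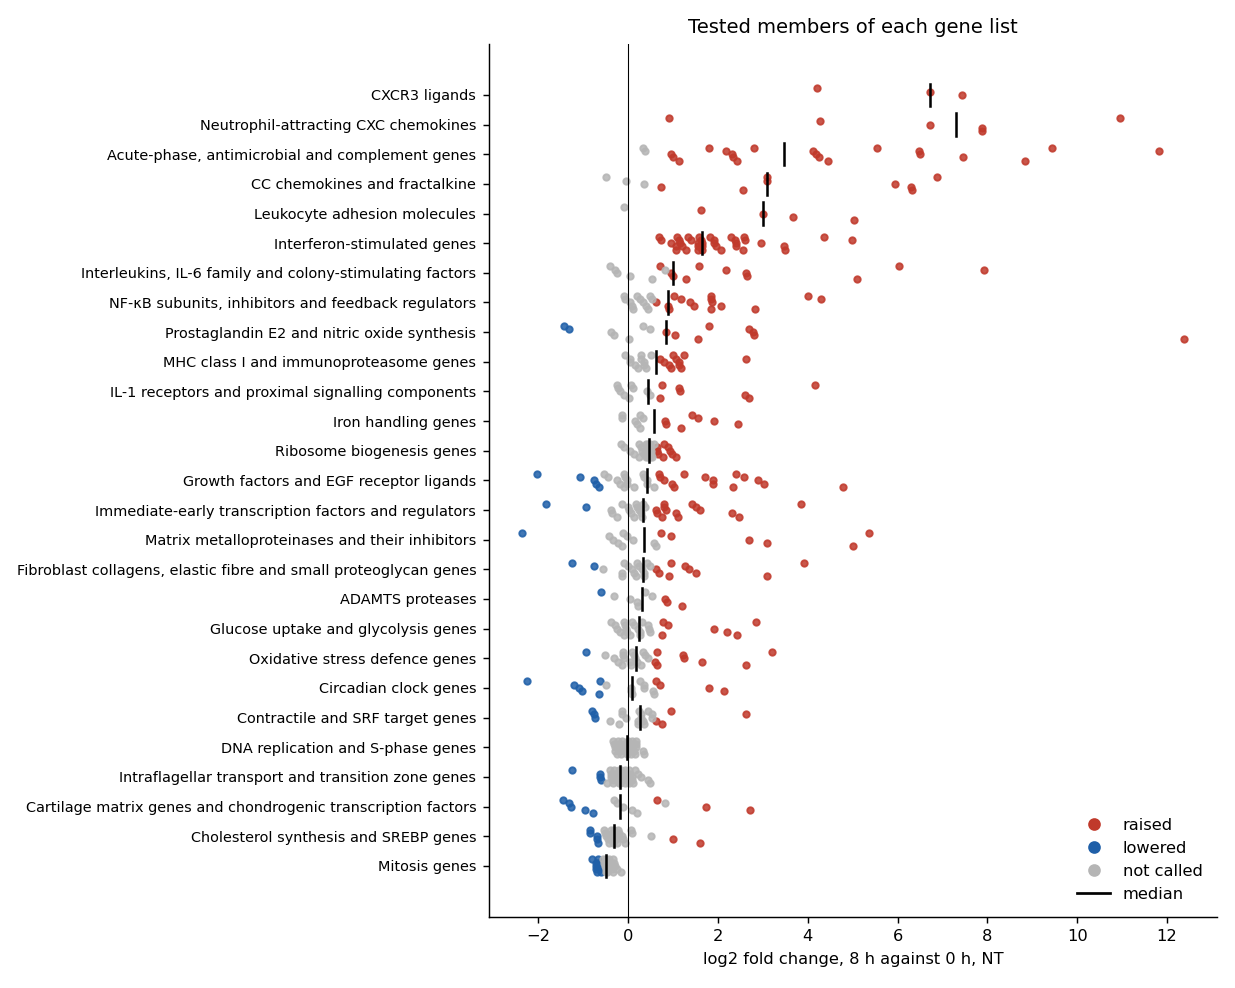
Log2 fold change at 8 h against 0 h in NT cells (horizontal axis) for the tested members of 27 gene lists, 1 point per gene, coloured as raised, lowered or not called, with a bar at the median of each list. All members of the interferon-stimulated list and 20 of 22 of the acute-phase list are raised, all 30 mitosis genes lie below 0 with 10 of them lowered, and no S-phase gene is called.

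Immediate-early transcription factors and regulators, which respond within an hour of a stimulus, were raised at 8 h for 14 of 31 tested members and lowered for 2 (median 0.33). Zc3h12a, which encodes the mRNA-degrading enzyme regnase-1, rose from 5.82, 5.36 and 5.25 to 79.6, 73.6 and 83.3 CPM (log2 fold change 3.86 ± 0.084, SE, edgeR, adjusted p = 3.9e-19). Ier3, the nuclear receptor Nr4a2 and the AP-1 members Fosl2 and Junb rose by 2.47, 2.32, 1.6 and 1.52. Fos, Jun and Egr1 were at 0.18, 0.23 and −0.36 and were not called. Egr3 stood at 14.4, 16.3 and 14.8 CPM at 0 h, had a mean of 897 CPM at 1 h and was at 3.89, 4.33 and 4.43 CPM at 8 h, a log2 fold change of −1.83 against 0 h.

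Genes of mitosis were lower at 8 h, 10 of 30 past the fold threshold and all 30 below 0, with a median of −0.49 and a narrow range from −0.81 to −0.16. Mki67, a marker of cycling cells, fell from 506, 506 and 489.5 to 315, 319 and 272 CPM (log2 fold change −0.72 ± 0.048, SE, edgeR, adjusted p = 1.4e-10). Cenpa, the centromeric histone, fell by 0.81, Cenpf by 0.72, the cyclin Ccnb2 by 0.72, and the spindle proteins Nusap1 and Aspm by 0.69 and 0.68. With log2(TPM + 0.1) in place of counts 17 of the 30 were called lowered. None of 30 DNA replication and S-phase genes was called, from −0.35 (Pola1) to 0.36 (Tyms), and their median of −0.014 turned positive under other settings (up to 0.02).

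Ribosome biogenesis genes were raised for 9 of 35 members and lowered for none (median 0.46). Rrp12, which exports pre-ribosomes, rose from 28.3, 26.9 and 28.8 to 59.7, 59.0 and 56.1 CPM (log2 fold change 1.07 ± 0.051, SE, edgeR, adjusted p = 7.3e-13), and the RNA polymerase I subunits Polr1a and Polr1b by 0.88 and 0.77. Rrp9, Mybbp1a and Tcof1 rose by 0.98, 0.94 and 0.81. With TPM values in place of counts 5 members were called.

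Of 30 tested cholesterol synthesis and SREBP genes 5 fell and 2 rose (median −0.32). Idi1 and Fdps, enzymes of isoprenoid synthesis, fell by 0.86 and 0.67, the later enzyme Msmo1 by 0.69, and the sterol-regulated brake Insig1 by 0.85. Abca1, which exports cholesterol, rose from 56.7, 57.8 and 54.1 to 183, 174 and 156 CPM (log2 fold change 1.61 ± 0.053, SE, edgeR, adjusted p = 2.1e-15), and Mylip, a ubiquitin ligase induced by sterols, by 1.0.

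Clock genes moved in both directions, 4 raised and 6 lowered of 19 (median 0.09, which ran from −0.02 to 0.26 over the settings tried). Of the PAR bZIP output factors Dbp fell from 7.58, 6.18 and 6.18 to 1.36, 1.44 and 1.34 CPM (log2 fold change −2.25 ± 0.17, SE, edgeR, adjusted p = 2.1e-10) and Tef fell by 1.2, whereas Hlf rose from 1.01, 0.941 and 0.883 to 4.08, 3.89 and 4.33 CPM (log2 fold change 2.13 ± 0.20, SE, edgeR, adjusted p = 3.0e-09). Nfil3, which represses the same promoter elements, rose by 1.8. The repressors Nr1d1, Per3 and Per2 fell by 1.10, 1.02 and 0.64, while the core activators Arntl and Clock were at 0.09 and 0.06 and were not called. Each NT time point has its own harvest and the 0 h condition is a single medium control, so time in culture and IL-1β cannot be told apart for these or any other genes.

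Oxidative stress defence genes rose for 8 of 26 tested members and fell for 1 (median 0.18). Mt2, a metallothionein, rose from 22.7, 22.7 and 22.4 to 204, 204 and 208 CPM and Sod2, the mitochondrial superoxide dismutase, from 37.0, 39.6 and 36.5 to 233, 228 and 236 CPM. Their log2 fold changes were 3.19 ± 0.046 and 2.63 ± 0.045 (SE, edgeR, adjusted p = 7.0e-21 and 1.3e-19). The cystine transporter Slc7a11 rose by 1.65, and the selenoprotein Gpx3 fell by 0.95. With TPM values 5 members of this list were called raised.

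In glucose handling, 7 of 26 genes rose and none fell (median 0.24), and the 7 were transporters, the regulator Pfkfb3 and hexokinase 2 (Hk2). Pfkfb3, which makes the activator of phosphofructokinase, rose from 7.54, 7.82 and 8.69 to 41.2, 42.8 and 43.1 CPM (log2 fold change 2.41 ± 0.072, SE, edgeR, adjusted p = 2.1e-16), Hk2 by 2.20 and the lactate transporters Slc16a1 and Slc16a3 by 1.92 and 0.89. The glucose transporters Slc2a6, Slc2a3 and Slc2a1 rose by 2.84, 0.78 and 0.75. The enzymes of the later steps, among them Gapdh (0.44), Pgk1 (0.27), Eno1 (−0.04) and Ldha (0.46), were not called. Of 14 tested iron handling genes 7 rose and none fell (median 0.58), with the metal transporters Slc39a8, Slc11a2 and Slc39a14 raised by 2.45, 1.91 and 1.42, ferritin heavy chain Fth1 by 1.57 and the ferritin receptor Scara5 by 1.18.

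Growth factors were raised for 15 of 35 tested members and lowered for 5 (median 0.41). The BMP antagonist Grem1 rose from 25.9, 26.6 and 24.9 to 209.6, 203 and 216 CPM (log2 fold change 3.03 ± 0.048, SE, edgeR, adjusted p = 3.4e-20). Angptl4 rose by 4.78, the EGF receptor ligands Ereg, Btc and Areg by 2.39, 2.35 and 0.69, Gdf5, a factor of joint formation, by 2.88, Vegfa by 1.89 and Hgf by 1.72. Platelet-derived growth factors divided, with Pdgfb raised by 2.59 and Pdgfa, Pdgfc and Pdgfd lowered by values of −0.72, −0.64 and −1.07, and Fgf18 was lowered, at −2.03. Of 22 contractile and SRF target genes 4 rose and 3 fell (median 0.26), with Acta2 (smooth muscle actin) at 0.94, against Mylk, Lmod1 and Myh11 at −0.73, −0.77 and −0.79. The call of Myh11 was lost with DESeq2 and without NT 0 h replicate 2 or 3 or NT 8 h replicate 1 or 2 (−0.79 to −0.49).

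Of 14 tested hedgehog pathway genes 4 rose and 2 fell. The receptor and target gene Ptch1 rose from 43.9, 45.8 and 43.6 to 172, 164 and 157 CPM (log2 fold change 1.90 ± 0.045, SE, edgeR, adjusted p = 1.8e-17), whereas the target Gli1 was at −0.46 without a call and Gli2 fell by 0.87. The list's median of 0.11 ran from −0.02 to 0.14 over the settings tried, and with TPM values 1 or 2 members were called raised. Intraflagellar transport and transition zone genes, the machinery of the primary cilium, were raised for none of 40 and lowered for 4 (median −0.17), with Wdr35 lowered from 104, 102 and 99.7 to 41.9, 43.4 and 42.9 CPM (log2 fold change −1.24 ± 0.044, SE, edgeR, adjusted p = 7.3e-15). Tctn1, Ift27 and Ift80 fell by 0.63, 0.62 and 0.59, close to the fold threshold, and without NT 0 h replicate 3 only 2 of the list were called. Without NT 8 h replicate 1, 1 member was raised and 3 were lowered. Ift27 also lost its call without NT 8 h replicate 2 (−0.58), and Ift80 with DESeq2 and without NT 0 h replicate 2 or 3 or NT 8 h replicate 1 or 3 (−0.58 to −0.55). Ift88 itself was at −0.39 in NT and was not called.

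Of the 18 genes that the study names from its RNA-seq, 11 rose and none fell (median 1.99). That list was chosen in the study on these libraries, so it is not independent evidence of direction. The 7 that were not called were Jun (0.23), Sox4 (0.22), Sox9 (0.19), Nphp4 (0.016), Wdr34 (−0.079), Ttbk2 (−0.20) and Ift88 (−0.39), as log2 fold changes. Of 6 tested endothelial and epithelial markers 2 rose and 2 fell, all at low levels: Cdh1 (E-cadherin) rose from 1.76, 1.47 and 2.07 to 6.85, 6.86 and 6.32 CPM, Kdr rose and Tek fell with group means under 2 CPM, and Krt5 had 67 reads at 0 h and 13 at 8 h. The call of Tek was lost with DESeq2 and without NT 0 h replicate 1 or NT 8 h replicate 1 or 2 (−0.59 to −0.51), when 1 of these markers was lowered. With no filter on low counts or with DESeq2 the macrophage markers Csf1r (3 reads at 0 h, 23 at 8 h) and Itgam (6 and 34 reads) were called raised, and what these reads contribute to other groups was not tested. With all 36 libraries in 1 fit 2 macrophage and leukocyte markers were likewise called raised.

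The question of how the 8 h level relates to the times around it was addressed by comparing NT libraries at 8 h with those at 4 h and at 24 h. These comparisons share the 8 h libraries with the one above, so their values are set side by side and no overlap is tested. At 8 h against 4 h, 1180 of 14946 tested genes were raised (7.9%) and 1462 lowered (9.78%). At 24 h against 8 h, 569 of 15374 were raised (3.7%) and 1400 lowered (9.11%). The highest mean of the 6 NT time points fell at 4 h for 779 of the 1749 genes raised at 8 h (44.5%), at 8 h for 551 (31.5%), at 24 h for 208 (11.9%), at 2 h for 137 and at 1 h for 74. Of the lowered genes, the lowest mean fell at 4 h for 420, at 8 h for 414 and at 24 h for 256 of 1275.

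Acute-phase genes were still rising at 8 h. Of 22 tested members 12 were higher at 8 h than at 4 h and none lower (median 0.68), and of 24 tested 12 were higher at 24 h than at 8 h and 1 lower (median 0.72). Saa3 had a mean of 164 ± 15.5 CPM (SD, n = 3) at 4 h, 422 ± 36.1 at 8 h and 1031 ± 88.0 at 24 h, and Lcn2 gave 152 ± 9.39, 325 ± 13.7 and 1226 ± 70.4 CPM. Hp was among the 5 largest rises of 8 h against 4 h (log2 fold change 2.02 ± 0.11, SE, edgeR, adjusted p = 1.5e-11) and rose again to 24 h (1.34). Orm1, another acute-phase gene, and S100a8, a calcium-binding antimicrobial protein, were among the largest rises from 8 h to 24 h (2.88 and 2.28).

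Most interferon-stimulated genes were past their 4 h level by 8 h. Of 37 tested 22 were lower at 8 h than at 4 h and none higher (median −0.71), and 35 were lower at 24 h than at 8 h (median −1.21). Mx1 had a mean of 14.1 ± 7.09 CPM (SD, n = 3) at 2 h, 347 ± 15.9 at 4 h, 156 ± 4.02 at 8 h and 11.2 ± 1.13 at 24 h. The 3 CXCR3 ligands were all lower at 24 h than at 8 h (median −4.51). Cxcl9 was among the largest falls, from 13, 15.3 and 13.6 CPM at 8 h to 0.718, 0.490 and 0.318 CPM at 24 h (log2 fold change −4.80 ± 0.24, SE, edgeR, adjusted p = 8.9e-10).

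Genes of the early wave had declined further. None of 31 tested immediate-early genes was higher and 26 were lower at 8 h than at 4 h, as were 16 of 28 tested NF-κB system genes, none of which was higher. Nfkbia had a mean of 877 CPM at 1 h, 252 at 4 h, 154 at 8 h and 149.6 at 24 h, so that 8 h lay on a plateau above the 42.2 CPM of 0 h. Pdgfb, a growth factor, was the largest fall of 8 h against 4 h by the naming rule, from 54.0, 48.0 and 53.5 to 4.97, 3.72 and 4.76 CPM (log2 fold change −3.51 ± 0.10, SE, edgeR, adjusted p = 2.5e-15), followed by Tnfsf10 (TRAIL, −2.42), Icam1 (−2.31), Cxcl2 (−2.27) and Egr3 (−2.26). Neutrophil chemokines had their highest means at different times: Cxcl1 had its highest mean at 1 h (1412 CPM), Cxcl5 at 24 h (868 CPM), and neither was called between 4 h and 8 h or between 8 h and 24 h.

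**Figure D3:**
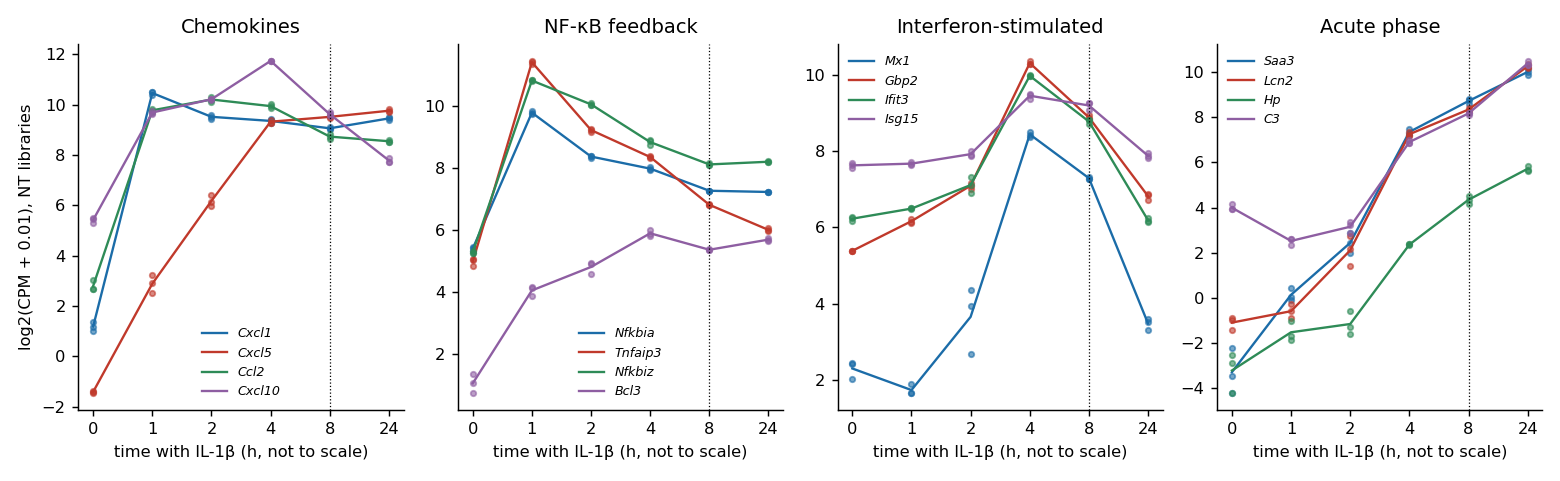
Levels as log2(CPM + 0.01) on the vertical axis of 16 genes in NT cells at the 6 time points from 0 h to 24 h of IL-1β (horizontal axis, evenly spaced and not to scale), with 1 point per library, a line through the means and a dotted line at 8 h. The NF-κB feedback genes Nfkbia and Nfkbiz are highest at 1 h, the plotted interferon-stimulated genes (Mx1, Gbp2, Ifit3 and Isg15) have their highest mean at 4 h, and Saa3, Lcn2 and Hp are highest at 24 h.

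Other genes were at or near their highest level at 8 h. The largest rises of 8 h against 4 h besides Hp were Hlf (2.55), Negr1, a neuronal adhesion molecule (2.35), Cyp1a1, a target of the aryl hydrocarbon receptor (2.12), and Fam19a1 (2.03). Cyp1a1 stood at 5.97 CPM at 0 h, 0.648 at 1 h, 2.44 at 4 h, 10.3 at 8 h and 0.546 at 24 h, so that its rise of 0.80 against 0 h followed a level below 0 h at 1 h to 4 h. Between 8 h and 24 h the largest falls besides Cxcl9 and Cyp1a1 were Igfbp5, a binding protein of insulin-like growth factors (−5.08), Myoc (−4.22) and Cilp2, a cartilage matrix protein (−4.12), each of which was raised at 8 h against 0 h. The largest rises from 8 h to 24 h were Ndufa4l2 (3.82), Orm1, Rassf9 (2.57), the neuropeptide gene Nts (2.51) and S100a8. Of the 30 mitosis genes 17 were higher at 24 h than at 8 h (median 0.60), and Mki67 returned from 302 ± 25.9 to 516 ± 46.6 CPM (SD, n = 3).

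Of the 1749 genes raised at 8 h against 0 h, 270 were higher and 513 lower at 8 h than at 4 h, and 75 were higher and 786 lower at 24 h than at 8 h. Of the 1275 lowered genes 237 were higher and 79 lower at 24 h than at 8 h. The direction of the 8 h against 4 h comparison depended on the unit: 44.7% of its calls were raised with counts, 54.1% with upper-quartile scaling and 56.98 to 59.9% with TPM values. The median log2 change of all genes was 0.018 with counts, 0.080 with upper-quartile scaling, 0.12 and 0.13 with filtered TPM values and 0.03 with unfiltered ones.

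Whether the 8 h response differed in cells depleted of IFT88 was addressed with 6 further libraries. The siRNA target was checked first: Ift88 was at 9.09, 8.60 and 9.31 CPM in NT at 0 h and 6.94, 7.39 and 6.22 CPM in NT at 8 h, against 2.57, 2.88 and 2.81 CPM in IFT88siRNA at 0 h and 1.51, 1.59 and 2.95 CPM in IFT88siRNA at 8 h. Every IFT88siRNA library was below every NT library, and replicate 3 of IFT88siRNA at 8 h had the highest level of the 8 h depleted group. That replicate was also the least like its group, with a chi-square per degree of freedom of 9.06 to 10.0 against the other 2.

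In IFT88siRNA cells 1504 of 15405 tested genes were raised at 8 h against 0 h (9.76%) and 1107 were lowered (7.19%). These libraries share none with the NT comparison. Among 15024 genes tested in both, 1339 were raised in both, which is 78.9% of the 1698 raised in NT and 90.8% of the 1474 raised in IFT88siRNA. In the other direction 800 were lowered in both, 64.6% of 1239 in NT and 74.8% of 1069 in IFT88siRNA. A single gene raised in NT was lowered in IFT88siRNA. The genes raised in NT had a median log2 fold change of 1.09 in NT and 0.98 in IFT88siRNA, and those lowered in NT −0.86 and −0.75, although the lists were chosen on the NT values.

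The difference between the 2 responses was then tested directly, as the interaction of siRNA and time in the 12 libraries. Of 15943 tested genes 37 were called, 33 with a lower change in IFT88siRNA (0.207%) and 4 with a higher change (0.0251%), and 1519 had an unadjusted p under 0.05. Of the 33 genes 30 were raised in NT, and all 4 of the others were lowered in NT. This test shares the NT libraries with the comparison above. Without replicate 3 of IFT88siRNA at 8 h 72 genes were called, without NT 0 h replicate 3 20 and without NT 0 h replicate 1 23.

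Mmp13 stood at 0.743, 0.561 and 0.422 CPM at 0 h and 9.38, 6.26 and 6.75 CPM at 8 h in IFT88siRNA, a log2 fold change of 3.65 against 5.36 in NT (difference −1.72 ± 0.39, SE, edgeR, adjusted p = 0.043). Ptgfr, the receptor of prostaglandin F2α, rose by 2.34 in NT and 0.62 in IFT88siRNA (difference −1.72 ± 0.27, SE, edgeR, adjusted p = 0.0025). Dcn rose by 3.92 and 3.10 and Slc7a2 by 2.81 and 1.97 in NT and IFT88siRNA, with differences of −0.82 and −0.84. Pi15, Steap4 and Gdf5 had differences of −1.68, −1.47 and −1.46. Of the genes with a higher value, Zfp750 changed by −1.55 in NT and −0.78 in IFT88siRNA, Cyp2s1 by −0.83 and 0.066, Klhl42 by −0.81 and −0.19, and Ddit4l by −1.09 and −0.50.

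None of the 12 largest rises or 12 largest falls of the NT response by the naming rule was called in this test. Cxcl1 had a log2 fold change of 7.88 in IFT88siRNA against 7.88 in NT, Lcn2 9.41 against 9.44 and Il6 7.43 against 7.93. Cxcl10, not among these genes, had 4.18 against 4.21. For Cxcl5 the values were 9.83 and 10.95 (difference −1.12 ± 0.40, SE, edgeR, adjusted p = 0.28), and for Il6 the difference was −0.50 ± 0.67 (SE, edgeR, adjusted p = 0.9). Neither adjusted p passes the threshold, which does not show that the responses were alike. The median difference was −0.012 over all tested genes and −0.14 over the 1749 genes raised in NT, a set chosen on the NT values. Over whole lists the median difference was −0.62 for neutrophil-attracting CXC chemokines (1 of 6 above 0) and −0.67 for CXCR3 ligands (0 of 3). It was −0.25 for the interleukin list (4 of 18), −0.21 for acute-phase genes (4 of 23) and −0.04 for interferon-stimulated genes (13 of 37). Of these lists only 2 acute-phase genes were called. Nos2 had 0.0338, 0.0702 and 0.0351 CPM at 0 h and 53.9, 54.6 and 47.8 CPM at 8 h in IFT88siRNA, against 104, 96.6 and 107 CPM at 8 h in NT, and with 1 read at 0 h in NT its fitted difference is not interpretable.

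**Figure D4:**
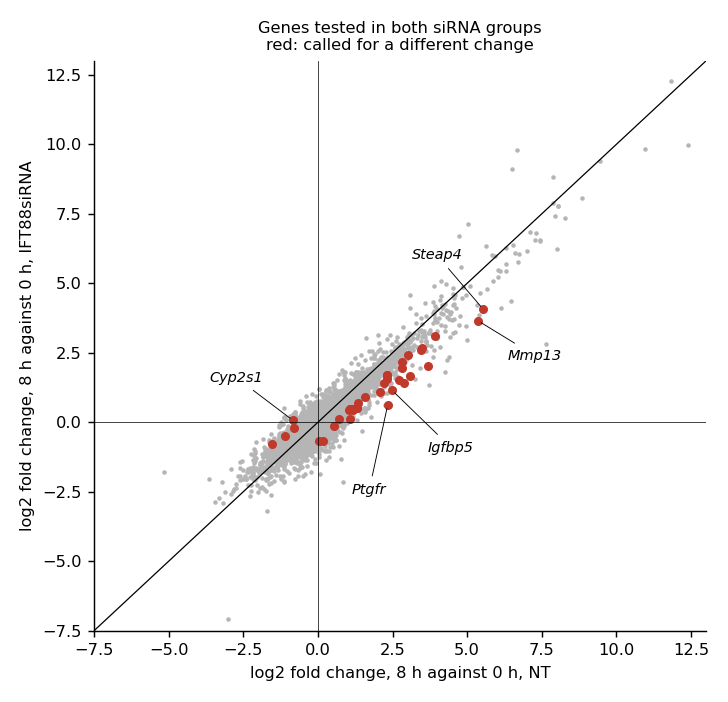
Log2 fold change at 8 h against 0 h in NT (horizontal axis) and in IFT88siRNA (vertical axis), 1 point per gene tested in both, with the line of equal change and the genes called for a difference in red. Of the 37 red genes 33 lie below the line and 4 above it, and the labelled genes include Ptgfr and Mmp13.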

How the data were processed

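Both tables used here cover the whole series of RNA-seq libraries. The authors aligned poly(A) RNA reads to GRCm38 with HISAT2 2.1.0 and deposited counts per gene from featureCounts (Subread 1.6.3) without normalization. TPM values per gene, made by the authors with Salmon 0.9.1, were used here only as an alternative and for levels of marker genes. The methods give default counting parameters, which disregard strand, so reads of a gene and an antisense or overlapping gene cannot be told apart. No donor, culture or lane is assigned to a library in the labels.

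Conditions came from the labels. Total counts per library were from 19337022 to 38304127, which sets counting error only. In R 4.3.3, the libraries of each comparison were scaled with TMM, filtered with filterByExpr and tested with edgeR 4.0.16 (quasi-likelihood F-test, Benjamini-Hochberg adjustment over all tested genes, adjusted p under 0.05 and fold over 1.5). Standard errors came from the information matrix of the fit times the quasi-dispersion, and were kept at or above counting error. A gene with no read in a group was set against 3 reads over the group, and 1 to 3 reads against an exact 95% interval. Symbols absent from the table were matched through RefSeq synonyms.

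The 31 gene lists and the libraries compared were chosen with earlier results of these data known. Genes are named by a rule: the 12 largest rises and falls at 8 h against 0 h and the 5 largest for the other times, among protein-coding genes called, with a mean of at least 50 counts and no overlap between groups, up to 6 members of each list by size of change, the study's named genes, and up to 5 genes in each direction for the difference between siRNA groups. Some genes that the rule names are not reported here. Further members are named where a list's count is explained. On counts simulated for this comparison with a log2 change of 1 in 200 of 15004 genes, 91% of the changed genes were called, with 6 false calls. The comparison itself called 3024 of 15230 genes, so the simulation does not measure error under so wide a change. Same-numbered NT libraries at 4 h and 8 h deviated together (correlations 0.23, 0.22 and 0.11 of their deviations from the group means), whereas those at 0 h and 8 h did not (−0.13, −0.098 and 0.047). Differently numbered NT libraries gave −0.26 to 0.054 for 4 h and 8 h, and −0.087 to 0.17 for 0 h and 8 h. For 8 h and 24 h same numbers gave 0.37, −0.078 and −0.040, and different numbers −0.41 to 0.44. Alternatives were DESeq2 1.42.0, DESeq2's size factors, upper-quartile scaling, no filter, no fold threshold, the replicate block, all 36 libraries in 1 fit, leaving out each library, and limma 3.58.1 on log2(TPM + 1) for genes at 1 TPM or more in 3 libraries, with a pseudocount of 0.1 or with no filter. Figures were drawn with matplotlib 3.10.9.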

Additional observations from a re-analysis of the deposited data

Results flagged for a closer look

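The change at 8 h against 0 h differed between NT and IFT88siRNA cells by a test of the difference itself for 37 genes (interaction term, edgeR's quasi-likelihood test with Benjamini-Hochberg adjustment), 33 with a lower and 4 with a higher change in IFT88siRNA. Among the genes named above, the difference in log2 fold change (IFT88siRNA minus NT) was −1.72 for Ptgfr, −1.72 for Mmp13, −1.68 for Pi15, −1.47 for Steap4 and −1.46 for Gdf5. Other genes in the set included Lum (−1.43), Prg4 (−1.2), Dcn (−0.82), Cilp2 (−0.81), Adamts9 (−0.71), Adamts1 (−0.65) and Tnc (−0.62). Igfbp5 gave −1.34 and Slc7a2 gave −0.84. The higher values were those of Cyp2s1 (0.90), Zfp750 (0.77), Klhl42 (0.62) and Ddit4l (0.59). Each of the 3 IFT88siRNA libraries at 8 h was below each NT library at 8 h for Mmp13, at 9.38, 6.26 and 6.75 against 25.1, 21.6 and 23.2 CPM. Replicate 3 of IFT88siRNA at 8 h, in which Ift88 was highest of its group, moved the count of called genes most: 72 genes were called without it, and its part in single values was not tested.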

How the results depend on the processing

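At 8 h against 0 h in NT, leaving out 1 library gave 2957 to 3178 called genes (1746 to 1848 raised, 1179 to 1336 lowered), the replicate number as a block 2970, and the other alternatives with a fold threshold 2337 to 3583. Without a fold threshold 8642 genes were called (4300 raised, 4342 lowered). Of 210 named and tested genes none was called in the opposite direction under any alternative, and 16 lost their call under 1 or more. Changes of sign in small values without a call are not covered by this count. The replicate block gave 2722 called genes at 8 h against 4 h, 1969 at 24 h against 8 h, 2562 in IFT88siRNA and 38 for the difference between siRNA groups.

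At 8 h against 4 h, no fold threshold gave 8066 called genes (4148 raised, 3918 lowered), and TPM values gave 859 lowered genes with a pseudocount of 1, 929 with 0.1 and 814 with no filter. At 24 h against 8 h, no fold threshold gave 6785 (3533 raised, 3252 lowered), and TPM values gave 326, 359 and 301 raised genes for the same 3 choices and 1260 called genes with no filter. In IFT88siRNA at 8 h against 0 h, no fold threshold gave 7034 (3475 raised, 3559 lowered), and TPM with no filter 717 lowered genes. With the pseudocount of 0.1 the median log2 change of all genes at 8 h against 0 h was −0.10, against −0.016 with counts.

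The difference between siRNA groups was the least settled count. Leaving out 1 library gave 20 to 72 called genes, 1 to 12 of them higher and 19 to 60 lower. Without a filter 71 genes were called (14 higher, 57 lower), without a fold threshold 125 (39 higher, 86 lower), with log2(TPM + 0.1) 13 (1 higher, 12 lower), with unfiltered TPM 21 (2 higher, 19 lower), and with all 36 libraries in 1 fit 12 were higher. DESeq2 called 39. The causes of these shifts were not tested, apart from the fold threshold, which by its construction admits smaller changes. Depth limits genes with few reads, such as Tnf, Chil1 and Matn1.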
